A study of Mus musculus with 10 samples.

Results

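The insulin-like growth factor (IGF) system was followed here through 10 genes, taken as a fixed list of its ligands (Igf1 and Igf2), its receptors (Igf1r and Igf2r) and its binding proteins (Igfbp2 to Igfbp7). They are 10 of 18193 genes that the mouse array names with at least 1 single-gene probe set, and 28 of 45037 probe sets tested carry them. The members were chosen by name, and no value of these arrays enters the rule, but earlier results of these data were known at that choice.

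Glomeruli, the filtering units of the kidney, came from 10 male mice aged 27 days, each giving 1 array. In 5 of them 1 copy of Wt1 carried the R394W change as a knock-in (Wt1 +/R394W), and 5 littermates had the normal gene only (Wt1 +/+). All had been backcrossed to FVB/N for 4 generations, and the mutants showed little albuminuria and no mesangial lesion by light microscopy. Wt1 encodes a zinc finger transcription factor made in podocytes, and R394W, a recurrent change in Denys-Drash syndrome, lies in the part of the protein that contacts DNA.

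IGF-I and IGF-II are small secreted growth factors that act through the tyrosine kinase receptor IGF1R, while IGF2R binds IGF-II and delivers it to lysosomes. Binding proteins hold most IGF outside cells, prolong its life and release it when proteases cleave them. In the glomerulus both mesangial cells and podocytes respond to IGFs, and the promoters of Igf2 and Igf1r have been reported as WT1 targets in cultured cells.

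Values are log2 expression values, so a change of 1 is a doubling in either direction. A change is the mean of the mutants less that of the wild types, with its standard error (SE, n = 5 mice per genotype). A gene was called when its p-value from limma, adjusted over all 45037 probe sets, was under 0.05. Where a gene had several probe sets, the one brightest on average over all 10 arrays stood for it and is called representative. The levels of different probe sets cannot be set against each other, so the members are not ranked by level.

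Podocyte markers differed less between preparations than tubule markers did. No other tissue was arrayed, so the purity of the glomeruli cannot be judged from these values. The mean of 9 measured podocyte markers was 12.58 to 12.76 across wild types and 12.37 to 12.69 across mutants. The genotypes differed by -0.13 in that mean, and no gene of the list was called. The mean of 10 proximal tubule markers was 6.89 to 9.70 across wild types and 7.16 to 10.82 across mutants, with the lowest value of each genotype in wild type 5 and mutant 5. Array medians lay within 0.0817 of each other. Labels name 1 mouse per array, so p-values measure the spread between mice. In such whole-glomerulus RNA, fewer cells of a type and less RNA per cell cannot be told apart.

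Of the 10 genes, 1 was called: Igfbp6 fell in the mutants, 1.66-fold. Over the whole array 1.26% of genes were called, and 0.698% were called lower. Igfbp2 (-0.43) and Igf2 (0.46) showed the next largest differences. Their genotypes did not overlap, but neither passed the test. The change of each of the other 7 genes was at most 0.09 in size by its representative probe set. Genotypes were separate in 3 of the 10 genes, 1 higher and 2 lower in mutants. Of all genes 3.67% were separate, 1.70% with mutants higher and 1.97% with mutants lower. The median size of change was 0.07 over the members and 0.07 over all genes. By probe set, 1 of 28 was called (0.853% of all probe sets), and 5 of 28 had an unadjusted p under 0.05 (9.36% of all probe sets).

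**Figure D1:**
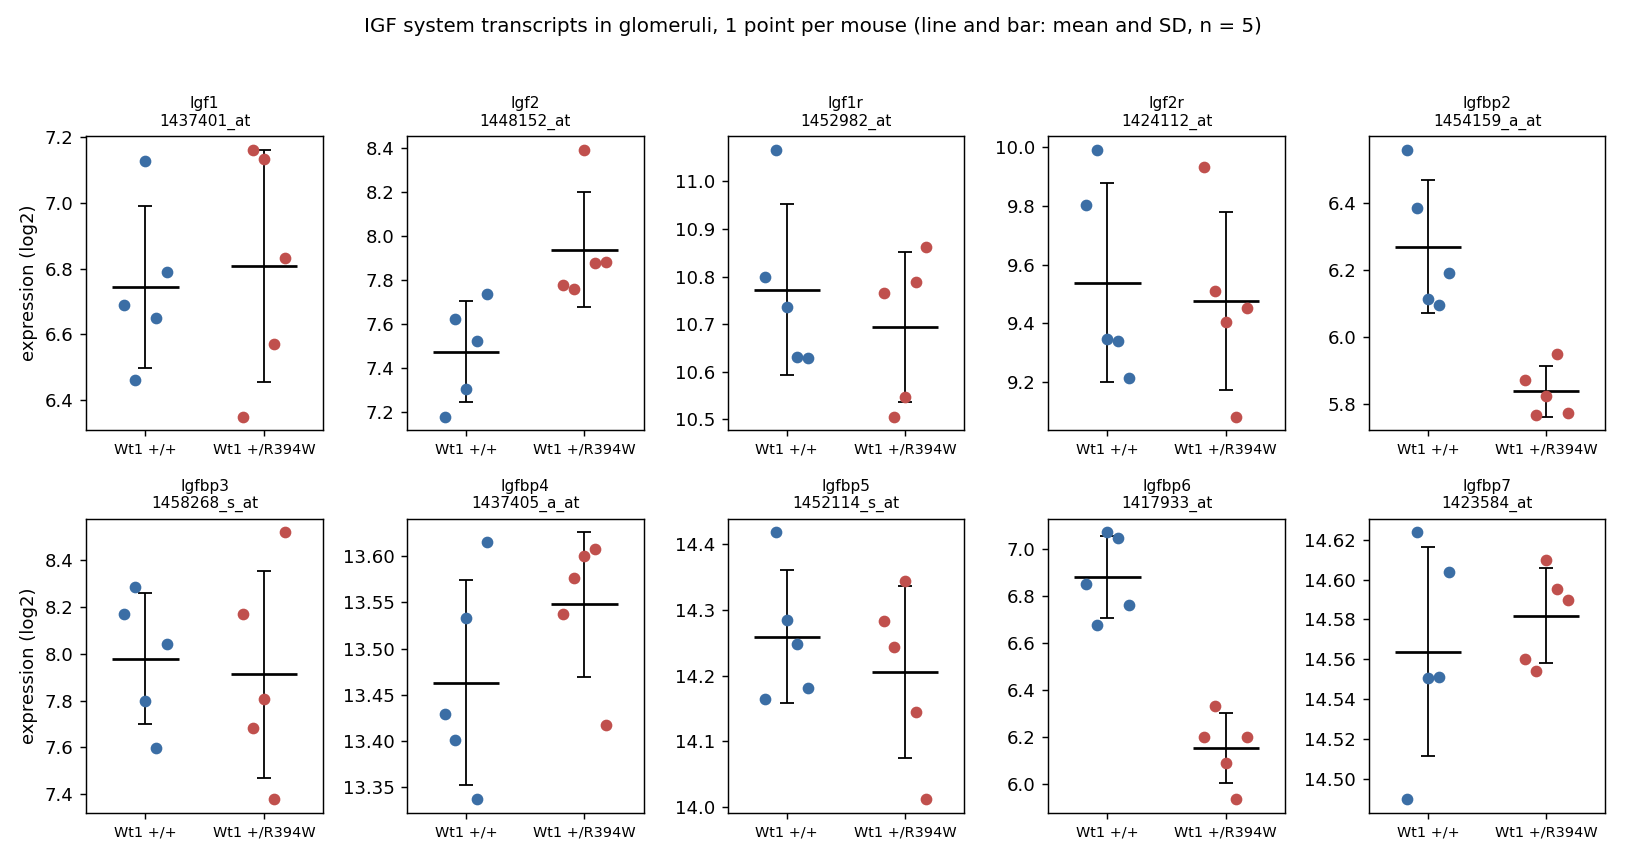
Expression (log2) of the 10 IGF system genes in each mouse, by the representative probe set, with the mean and SD of 5 mice per genotype and a vertical scale of its own in each panel. Wild types and mutants lie apart for Igfbp6, Igfbp2 and Igf2 and overlap for the other 7 genes.

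Igfbp6 encodes a binding protein that prefers IGF-II to IGF-I. Its single probe set (1417933_at, chromosome 15) read 6.85, 6.68, 7.07, 7.05 and 6.76 in wild types 1 to 5. In mutants 1 to 5 it read 6.20, 6.33, 6.09, 5.93 and 6.20. Every mutant lay below every wild type, with the highest mutant (6.33) under the lowest wild type (6.68). The means were 6.88 ± 0.17 (SD, n = 5) and 6.15 ± 0.15 (SD, n = 5). The mean over all mice, 6.52, was just above the median of all probe sets (6.36), and every mutant read below that median. Igfbp6 fell by 0.73 ± 0.10 (SE) on the log2 scale, with an adjusted p of 0.00459 and a 95% confidence interval of -0.95 to -0.52. That is a 1.66-fold difference, with an interval of 1.43 to 1.93. The call held when each mouse was left out in turn (adjusted p 0.00575 to 0.0175). With wild types 2 to 4 and mutants 1 to 4 alone, whose animal numbers lie close together, the change was -0.79 and the adjusted p 0.0722. With a block for each run of neighbouring numbers among them it was -0.80 (adjusted p = 0.0819).

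The marker lists with the lowest median changes were the erythroid (-0.40) and the parietal epithelial list (-0.31). Of 3 measured erythroid markers 2 were lower, and the mean of that list was 6.46 to 7.17 across wild types and 6.03 to 6.54 across mutants. Of 5 parietal epithelial markers 3 were lower, with list means of 7.57 to 7.76 in wild types and 7.45 to 7.75 in mutants. No gene of either list was called, and their part in the fall of Igfbp6 was not tested. Of 10 proximal tubule markers 9 were higher in mutants and none was called. Of 9 podocyte markers 8 were lower in mutants, with a median change of -0.09, and of 10 glomerular endothelial markers 8 were lower, with a median of -0.06. Of 9 mesangial and smooth muscle markers 6 were higher, and of 10 distal nephron markers 8 were higher. No gene of these 4 lists was called. Of 9 macrophage and leukocyte markers 6 were higher and 3 lower, with a median change of 0.02, and 1 was called. That was Csf1r, the receptor gene for colony-stimulating factor, which was lower in mutants, with a change of -0.99 ± 0.17 (SE) and an adjusted p of 0.0220 by 1419872_at. With a tubule score per array, averaged over the proximal and distal marker lists, as a covariate, Igfbp6 changed by -0.74 (adjusted p = 0.00722).

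Igfbp2, a binding protein of both ligands that also binds integrins, had 1 probe set (1454159_a_at, chromosome 1). The wild types read 6.56, 6.38, 6.11, 6.10 and 6.19, and the mutants read 5.87, 5.77, 5.83, 5.95 and 5.77. All mutants were below all wild types, and the mutants lay closer together (SD 0.08) than the wild types (SD 0.20). The change was -0.43 ± 0.09 (SE), with an interval of -0.63 to -0.23 and an adjusted p of 0.0622. Igfbp2 crossed the threshold with arrays centred on their median (adjusted p = 0.0465), with quantile normalization (0.0490), with array weights (0.0377) and with gene means (0.0377). Its adjusted p was 0.0684 to 0.148 when a mouse was left out. Its mean signal of 6.05 was below the median of all probe sets (6.36).

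Igf2, the imprinted fetal growth factor gene, had 2 probe sets on chromosome 7. By 1448152_at the wild types read 7.18, 7.63, 7.31, 7.52 and 7.74. The mutants read 7.78, 7.76, 8.39, 7.88 and 7.89. Every mutant lay above every wild type, with wild type 5 and mutant 2 nearly level, and mutant 3 stood above the other mutants. The change of 0.46 ± 0.14 (SE) did not pass (adjusted p = 0.236, interval 0.16 to 0.77), and without mutant 3 it was 0.35 (adjusted p = 0.330). The other probe set, 1415931_at, had a low mean signal of 4.23 and a change of -0.07 ± 0.11 (SE, adjusted p = 0.889). Averaged over both, the change of Igf2 was 0.20 ± 0.09 (SE, adjusted p = 0.421).

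Igf1 encodes the main ligand of IGF1R after birth and had 4 probe sets on chromosome 10. None was called, with changes from -0.16 to 0.07 and adjusted p-values from 0.732 to 0.952. By 1437401_at the wild types read 6.69, 6.46, 7.13, 6.65 and 6.79, and the mutants read 6.35, 7.16, 7.13, 6.57 and 6.83. The genotypes overlapped fully, and the change of 0.07 ± 0.17 (SE) had an interval of -0.30 to 0.43. Wild type 3 and mutants 2 and 3 were the highest mice. The same 3 mice had the highest means over 9 macrophage and leukocyte markers (6.87, 6.54 and 6.53, against 5.79 to 6.33 in the other 7 mice). These mice were also highest by 1434413_at, but not by the other 2 probe sets. By 1452014_a_at wild type 5 (6.73), wild type 3 (6.69) and mutant 1 (6.58) read highest, and mutant 1 had the lowest macrophage and leukocyte mean. By 1419519_at wild types 3 and 1 and mutant 5 did. Macrophages are a known source of Igf1. The part of these cells in the Igf1 values was not tested.

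Igf1r, the signalling receptor and a reported WT1 target, had 5 probe sets on chromosome 7, all of them with a negative change and none called. By 1452982_at the wild types read 10.80, 11.07, 10.74, 10.63 and 10.63, and the mutants read 10.77, 10.51, 10.55, 10.79 and 10.86. The genotypes overlapped, and the change was -0.08 ± 0.10 (SE, adjusted p = 0.865). Its interval ran from -0.30 to 0.14. The other probe sets changed by -0.13 (1426565_at), -0.41 (1428967_at), -0.19 (1446303_at) and -0.27 (1452108_at), with adjusted p-values of 0.348 to 0.871. The intervals, not adjusted for the number of tests, were -0.83 to 0.02 for 1428967_at and -0.48 to -0.06 for 1452108_at. Averaged over its probe sets, Igf1r changed by -0.21 ± 0.10 (SE, adjusted p = 0.459). Probe sets of a gene read the same RNA, so their shared sign is not repeated evidence.

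Igf2r, the receptor that removes IGF-II and is itself imprinted in mice, had 2 probe sets on chromosome 17. The change was -0.06 ± 0.18 (SE, adjusted p = 0.945) by 1424112_at and 0.05 ± 0.08 (SE, adjusted p = 0.887) by 1424111_at. By 1424112_at the wild types ran from 9.21 to 9.99 (median 9.35) and the mutants from 9.08 to 9.93 (median 9.45). Wild types 1 and 2 (9.80 and 9.99) and mutant 1 (9.93) stood above the other mice. By 1424111_at the values of all mice lay between 8.56 and 8.90, so the spread seen with 1424112_at was not seen there.

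Of the remaining binding proteins none was called. Igfbp3, the main carrier of IGF in blood, had changes of -0.07 (1458268_s_at) and -0.19 (1423062_at), with adjusted p-values of 0.950 and 0.832. Its mutants were spread most widely among the 10 representative probe sets, from 7.38 in mutant 4 to 8.52 in mutant 5 (SD 0.44), and the wild types ran from 7.60 to 8.28. Mutant 4 and mutant 5 were also the highest and the lowest mutant for proximal tubule markers (10.82 and 7.16). The other mice did not all follow that order. Mutant 1, the next highest mutant for those markers (9.94), read 8.17 for Igfbp3. Wild type 5, the lowest wild type for them (6.89), read 8.04, inside the range of the wild types. With the tubule score as a covariate the change of Igfbp3 was 0.01 (adjusted p = 0.993). The part of tubule in the Igfbp3 values was not tested further.

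Igfbp4, a binding protein that the protease PAPP-A cleaves, had 6 probe sets on chromosome 11, all with a positive change. The changes ran from 0.09 to 0.23 with adjusted p-values of 0.436 to 0.776, and their mean changed by 0.15 ± 0.07 (SE, adjusted p = 0.455). By 1437405_a_at the change was 0.09 ± 0.07 (SE, interval -0.07 to 0.24), from 13.46 ± 0.11 (SD, n = 5) to 13.55 ± 0.08 (SD, n = 5). Igfbp5, a binding protein that also attaches to extracellular matrix, changed by -0.05 ± 0.08 (SE) with 1452114_s_at and by 0.05 ± 0.13 (SE) with 1422313_a_at. Its wild types ran from 14.16 to 14.42 and its mutants from 14.01 to 14.34 by the former. Igfbp7, a relative with low affinity for IGFs that vascular cells secrete, had 3 probe sets and none was called. By 1423584_at, close to the highest value of the whole table (14.89), it read 14.56 ± 0.05 (SD, n = 5) in wild types and 14.58 ± 0.02 (SD, n = 5) in mutants, with an interval of the change from -0.09 to 0.13. By the less bright 1423585_at the wild types had an SD of 0.13 and the change was 0.11 ± 0.07 (SE, adjusted p = 0.702).

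**Figure D2:**
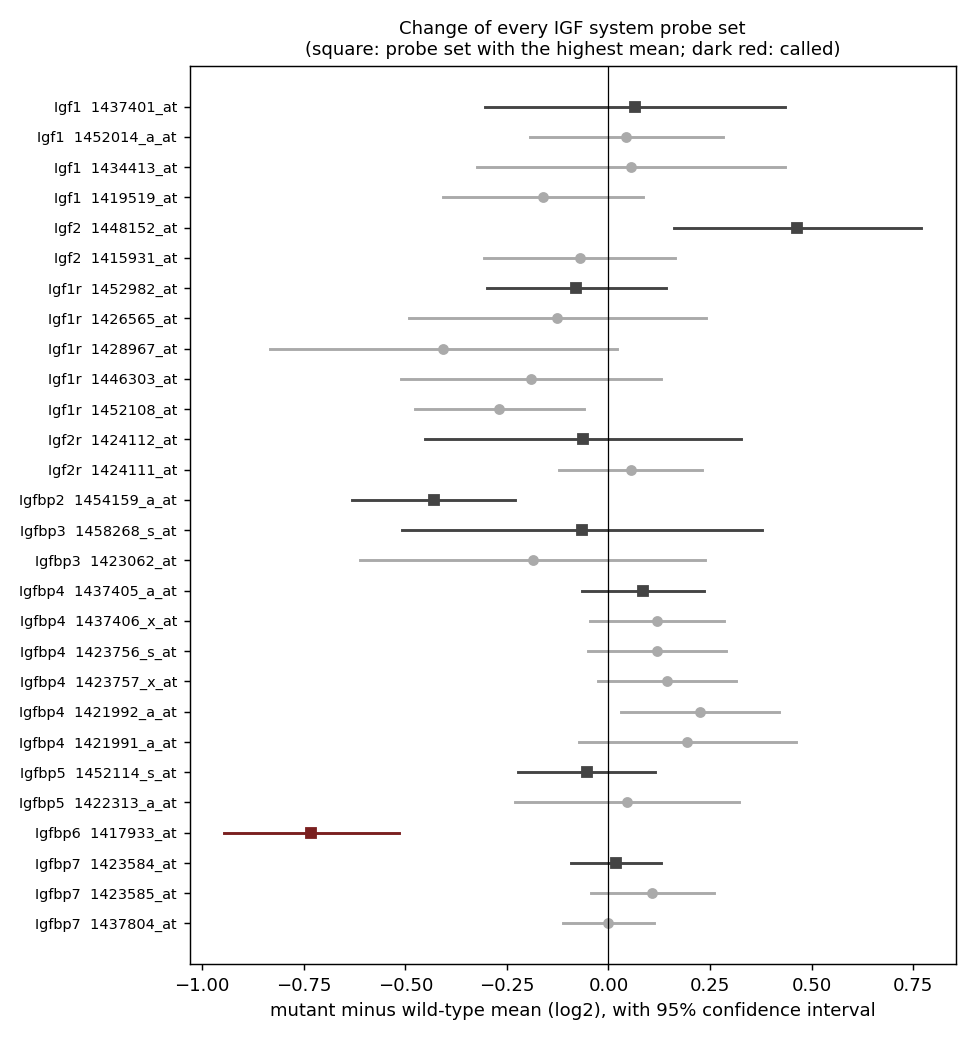
Change (mutant minus wild-type mean, log2) of each of the 28 IGF system probe sets with its 95% confidence interval. Squares mark the representative probe set of a gene. Igfbp6 (-0.73) is the called probe set, all 5 probe sets of Igf1r lie left of 0 and all 6 of Igfbp4 lie right of 0.

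The promoters of the genes on which these comparisons turn are shown because Igfbp6, Igfbp2 and Igf2 were the members whose genotypes lay apart and Igf1r is a reported WT1 target. Each window holds 250 bases before and 50 bases after a transcript start in RefSeq (build GRCm38.p6), 5′ to 3′ on the strand of the gene. Capitals mark GTGGGAG, or CTCCCAC where it lies on the opposite strand.
Igfbp6, chr15:102143936-102144235, plus strand: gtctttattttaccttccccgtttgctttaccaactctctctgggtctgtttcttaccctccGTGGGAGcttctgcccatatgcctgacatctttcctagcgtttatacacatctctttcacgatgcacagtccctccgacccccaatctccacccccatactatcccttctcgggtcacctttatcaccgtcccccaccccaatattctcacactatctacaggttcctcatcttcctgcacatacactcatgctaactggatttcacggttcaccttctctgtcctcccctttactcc
Igfbp2, the upstream of 2 starts, chr1:72824230-72824529, plus strand: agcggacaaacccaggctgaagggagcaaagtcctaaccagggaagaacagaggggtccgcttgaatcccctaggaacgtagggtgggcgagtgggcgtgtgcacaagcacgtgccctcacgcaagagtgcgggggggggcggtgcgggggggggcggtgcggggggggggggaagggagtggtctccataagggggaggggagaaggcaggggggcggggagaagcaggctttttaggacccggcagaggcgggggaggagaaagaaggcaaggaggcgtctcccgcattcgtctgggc
Igf2, the most downstream of 4 starts, chr7:142657447-142657746, minus strand: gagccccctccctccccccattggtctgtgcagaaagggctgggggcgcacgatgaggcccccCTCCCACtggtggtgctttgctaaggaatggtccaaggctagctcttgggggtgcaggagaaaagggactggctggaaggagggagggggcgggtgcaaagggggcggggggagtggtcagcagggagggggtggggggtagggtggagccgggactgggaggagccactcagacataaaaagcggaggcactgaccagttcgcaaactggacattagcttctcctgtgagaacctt
Igf1r, chr7:67952007-67952306, plus strand: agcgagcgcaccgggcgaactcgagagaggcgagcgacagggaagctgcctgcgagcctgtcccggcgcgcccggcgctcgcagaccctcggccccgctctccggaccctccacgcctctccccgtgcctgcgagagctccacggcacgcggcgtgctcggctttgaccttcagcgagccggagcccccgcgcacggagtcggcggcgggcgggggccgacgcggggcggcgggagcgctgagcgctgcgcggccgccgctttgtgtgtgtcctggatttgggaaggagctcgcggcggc

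WT1 binds GC-rich elements, and 3 motifs were searched on both strands of all 14 promoter windows of the 10 members. The EGR-like element GCGGGGGCG was in 1 of 14 windows, that of Igf2r, and in 2.91% of 32851 windows of all genes. The longer WT1 element GCGTGGGAG was in 0 of 14 windows and in 0.472% of all. Its shorter core GTGGGAG, which every longer match also holds, was in 4 of 14 windows and in 9.73% of all. These were the windows of Igfbp6 (188 bases before the start), the printed Igf2 start (187 bases before it), Igfbp4 and Igfbp7. The printed Igf2 start was the only one of the 4 Igf2 starts whose window held the core. GC content ran from 49.7% (Igfbp6 and an Igf2 start) to 76.0% (Igf1r), against a median of 52.7% over all windows. A match is a run of letters and says nothing of binding, and the arrays do not read promoters.

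Few other genes of the pathway were called. Of 59 listed genes 54 were measured, and 2 rose and none fell. The median change was -0.01, against 0.00 over all genes. The 5 others were not analysed here. The rises were Adam12 among 6 proteases and regulators of binding proteins, and Ccn4 among 10 other proteins with an IGF-binding-protein-like domain. Of all genes, 0.566% were called higher.

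Adam12, a metalloprotease that can cleave IGFBP3 and IGFBP5, rose 1.54-fold (0.63 ± 0.12 SE, adjusted p = 0.0363, 1421172_at, chromosome 7). The wild types read 10.45, 10.33, 10.29, 10.51 and 10.84, and the mutants read 11.04, 11.15, 11.28, 11.27 and 10.82. Mutant 5 lay just below wild type 5, and the other mutants were above all wild types. A second probe set, 1421171_at, rose by 0.77 ± 0.12 (SE, adjusted p = 0.0139) without overlap. When mice were left out in turn, the 1421172_at call held without wild type 5 and without mutant 5, and in the other 8 fits the adjusted p reached 0.0976.

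Ccn4, also known as WISP1, is a secreted matricellular protein of the CCN family. It rose 1.84-fold (0.88 ± 0.16 SE, adjusted p = 0.0319, 1448593_at, chromosome 15). The wild types read 7.07, 7.18, 7.39, 7.26 and 7.59, and the mutants read 7.63, 8.32, 8.63, 8.16 and 8.13. The genotypes did not overlap, with wild type 5 and mutant 1 nearest to each other. The second probe set, 1448594_at, rose by 1.37 ± 0.24 (SE, adjusted p = 0.0209). With mice left out in turn, the 1448593_at call held without wild type 5 and without mutant 1, and elsewhere the adjusted p reached 0.0961. With wild types 2 to 4 and mutants 1 to 4 alone it was 0.215.

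The other CCN genes did not pass. The largest difference was that of Ccn1 (0.77 ± 0.41 SE, adjusted p = 0.615). Of the protease Pappa2, which cleaves IGFBP5, the change was 0.39 ± 0.14 (SE, adjusted p = 0.386). No gene was called among 8 genes of the growth hormone axis, the insulin receptors and other soluble components. The largest size of change there was that of Igfbp1, a binding protein controlled by insulin, at 0.41 ± 0.26 (SE, adjusted p = 0.697). Stat5b, which relays growth hormone signals, changed by 0.11 ± 0.09 (SE). Of the RNA-binding proteins of Igf2 transcripts, Igf2bp3 changed by 0.11 ± 0.06 (SE) and Igf2bp1 by -0.01 ± 0.19 (SE).

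Downstream of the receptor, none of 9 adaptor genes and none of 19 genes of the PI3 kinase, Akt and mTOR branch was called. The adaptor genes with the smallest p were Irs4 (-0.17 ± 0.07 SE, adjusted p = 0.448) and Shc1 (0.19 ± 0.09 SE, adjusted p = 0.521). In the kinase branch they were Pik3r1, a regulatory subunit of PI3 kinase (0.22 ± 0.09 SE, adjusted p = 0.447), and Foxo3, a transcription factor that Akt restrains (-0.19 ± 0.09 SE, adjusted p = 0.564). Of the 4 probe sets of Pik3r1, all with a positive change, 1 other than the representative one was called. This was 1425515_at, which rose by 0.35 ± 0.07 (SE, adjusted p = 0.0469). The uncalled 1425514_at and 1451737_at changed by 0.57 ± 0.29 (SE, adjusted p = 0.588) and 0.56 ± 0.21 (SE, adjusted p = 0.410). These further probe sets are named after their values were seen. By the representative probe sets alone, changes in this branch ran from -0.19 to 0.22, with a median of 0.00.

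**Figure D3:**
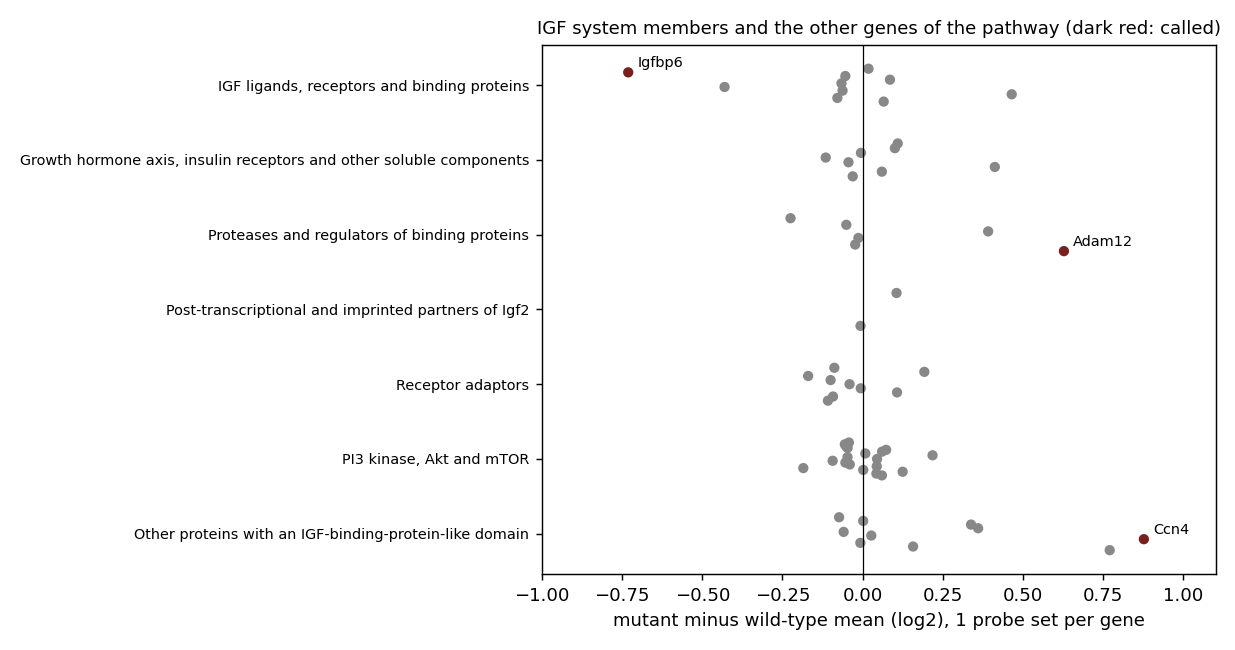
Change (mutant minus wild-type mean, log2) of the 10 IGF system genes and of the 54 other pathway genes measured, 1 point per gene, by list. Dark red marks the called genes Igfbp6 (-0.73), Adam12 (0.63) and Ccn4 (0.88), and 19 genes of the PI3 kinase, Akt and mTOR list lie between -0.19 and 0.22.

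For Igfbp6 and Igfbp2, the members with the smallest p, the genes that varied most like them among mice were looked up after each genotype mean was subtracted. Of 11444 genes with a mean above the median of all probe sets, Kcnma1, Snx20 and Vti1b followed Igfbp6 most closely, with Pearson r of 0.94, 0.94 and 0.92 over 10 arrays. For Igfbp2 they were Vill, Cpox and Ptdss2, with r of 0.93, 0.92 and 0.91. These values are the tops of a long ranking over few arrays and serve as a description. None of the 6 genes was itself called between the genotypes (adjusted p 0.365 to 0.978).

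**Figure D4:**
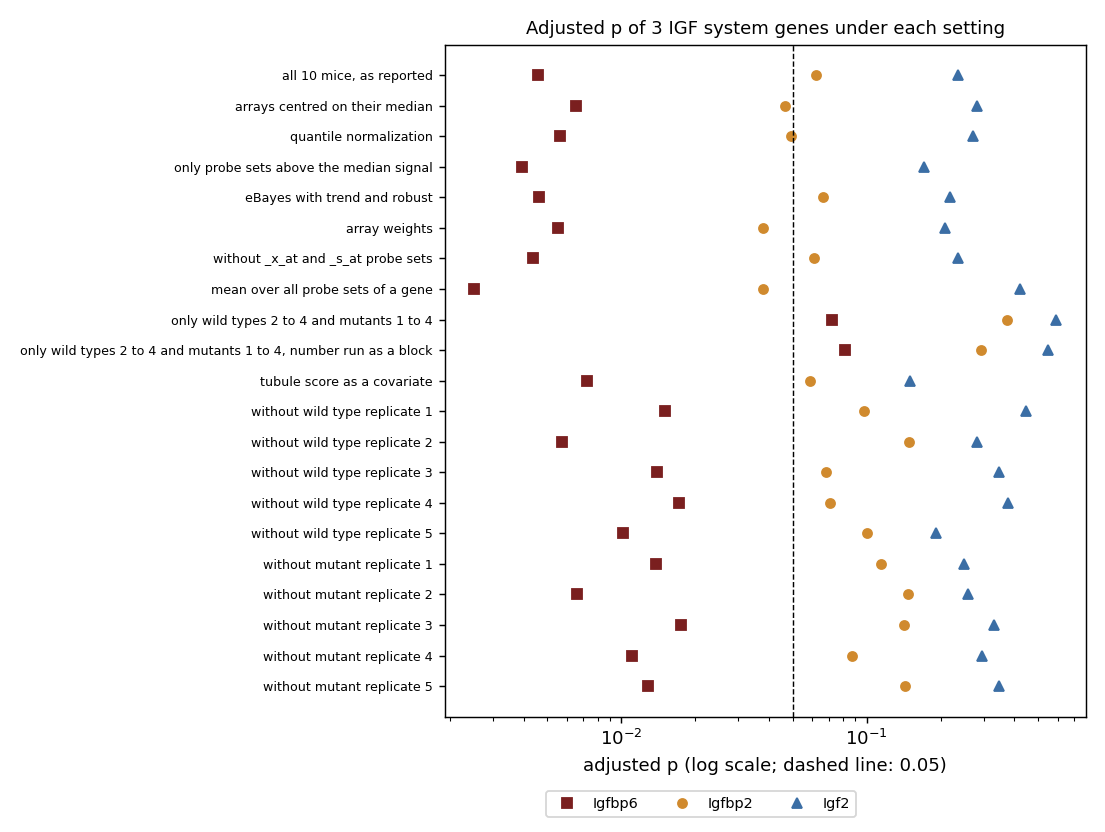
Adjusted p (log axis, dashed line at 0.05) of Igfbp6, Igfbp2 and Igf2 with all 10 mice and under each other setting. Igfbp6 stays left of the line except with wild types 2 to 4 and mutants 1 to 4 alone (0.0722 and 0.0819), Igfbp2 lies on both sides of it (0.0377 to 0.373, with no value under the filter on low signal), and Igf2 lies right of it throughout.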

How the data were processed

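The deposited values are log2 expression values per probe set that the authors made with RMA (robust multi-array average: background correction, quantile normalization and probe summary), per the submitters' processing notes. Neither a version nor settings of RMA are named in these sources, and scanner files were not used here. RMA compresses changes of weak signals. All 10 columns were assigned through the sample labels, and 0 columns were left over.

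Of 45101 probe sets, 64 controls were left out. The platform annotation gave 1 gene for 34945 of the 45037 others, several for 932 and none listed for 9160. The genotype coefficient was fitted per probe set with limma 3.58.1 in R 4.3.3, without covariates and two-sided, with Benjamini-Hochberg adjustment over all probe sets. Replicate numbers only name mice, and litters are not given, so no pairs were fitted. The fit was tested on simulated data with 5 against 5 arrays and 200 changed probe sets. It recovered 53% of changes of 0.5, with 7.83% of calls false. Of changes of 1.0 it recovered 93%, with 5.58% of calls false. The simulated noise was normal and independent between probe sets, and the changed probe sets were drawn at random from the whole array. These rates are therefore averages over the array and not rates for the members. The median wild-type SD was 0.19 over member genes and 0.13 over all genes. Alternatives changed the normalization, the filter on low signal, the variance model, array weights, the threshold, the probe sets kept or averaged, the mice used and the tubule covariate.

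Members and lists were chosen with earlier results of these data known. Named genes were all members, called pathway genes, the 2 smallest p of each pathway list and the 3 genes most like a called member or the 2 members with the smallest p. The promoter motifs, the further probe sets of pathway genes, the marker comparisons for Igf1 and Igfbp3 and the naming of Csf1r came after values or sequences were seen. RefSeq (GRCm38.p6) gave chromosomes for 10 of 10 members and promoters for 10. Figures used matplotlib (version 3.10.9) in Python (version 3.11.15).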

Additional observations from a re-analysis of the deposited data

Results flagged for a closer look

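In 5 of 80 groups of 5 mice, 1 mouse lay far from the others by Dixon's 95% criterion, where chance gives about 5%. In 3 of them it was mutant 3: Igf2 by 1448152_at (8.39, the other mutants 7.76 to 7.89), Igfbp4 by 1423757_x_at (12.43, against 12.10 to 12.19) and Igfbp5 by 1422313_a_at (12.21, against 11.74 to 11.81). On the representative probe sets of Igfbp4 and Igfbp5 that mouse was not set apart in this way. Mutant 1 stood above the other mutants on the Igf1r probe set 1428967_at (9.00, against 8.44 to 8.58). The last was Foxo3 by 1434831_a_at in wild type 3, at 10.09 against 10.27 to 10.34 in the other wild types.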

How the results depend on the processing

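The fall of Igfbp6 kept its direction and its call under every setting run except with wild types 2 to 4 and mutants 1 to 4 alone. There it was -0.79, or -0.80 with number runs as a block, and 0 members passed by gene or by probe set. Those fits, which hold fewer mice, called 110 and 126 probe sets over the whole array, against 384 with all mice, and 1 pathway gene each. Igfbp2 was called beside Igfbp6, giving 2 called member genes, with arrays centred on their median (-0.42), quantile normalization (-0.42), array weights (-0.47) and gene means (-0.43, where fewer features were tested). At the 0.01 threshold 144 probe sets and 0 pathway genes were called. The sign of 2 small, uncalled changes turned: Igfbp5 without _x_at and _s_at probe sets (0.046, by its other probe set) and Igfbp3 with the tubule score (0.0077). Without 1 mouse, 216 (wild type 4) to 301 probe sets and 0 to 2 pathway genes were called, and 242 without wild type 1. Under the same omissions the change of Igf1 was -0.023 to 0.18, of Igf2r -0.18 to 0.051, of Igfbp3 -0.22 to 0.067 and of Igfbp7 -0.00046 to 0.033. Without a change of sign, Igf1r ranged from -0.12 to -0.0052, Igfbp5 from -0.089 to -0.0056 and Igfbp4 from 0.053 to 0.12. Igf2 was never called (0.20 to 0.53, adjusted p 0.150 to 0.593). The causes of these shifts were not tested beyond what is said. No paired analysis was possible because the labels number animals and not pairs or litters.

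The number of arrays, 5 per genotype, limits the precision: the interval of the Igf2 change spans 0.16 to 0.77 and that of Igfbp2 spans -0.63 to -0.23. Igfbp2 (mean 6.05) and the second Igf2 probe set (mean 4.23) lay below the median signal of all probe sets (6.36), where RMA can understate a change. The called Igfbp6 (mean 6.52) lay just above that median, with all its mutant values (5.93 to 6.33) below it.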

Other observations

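Antisense transcripts of both ligand genes are on the array, and neither was called. Igf1os changed by 0.09 ± 0.08 (SE, adjusted p = 0.777) and Igf2os by -0.04 ± 0.07 (SE, adjusted p = 0.905). A probe set that the annotation gives to both Igf2r and the antisense gene Airn (1440979_at) changed by -0.12 ± 0.08 (SE, adjusted p = 0.721) and is not counted among the members. These 3 were named after their values were seen.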
